A study of Drosophila melanogaster with 16 samples.

Results

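Nicotinic acetylcholine receptors are the main excitatory transmitter receptors of the insect brain, and the Drosophila genome holds 10 genes for their subunits, nAChRalpha1 to nAChRalpha7 and nAChRbeta1 to nAChRbeta3. Their transcripts were followed in neuroblasts of type I (NBs), which are stem cells of the larval central brain, and in their small daughters, the ganglion mother cells (GMCs), each of which divides once more into neurons or glia. The 10 genes were taken by symbol from 16364 genes listed in every library. All 10 were found, 9 of them entered the tests, and nAChRbeta3 had 0 counts in all libraries.

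A nicotinic receptor is a ring of subunits around a cation channel. Alpha subunits carry an adjacent pair of cysteines in the loop that binds acetylcholine, and beta subunits lack it and complete the binding site from the neighbouring face. In flies the receptors carry fast synaptic transmission between central neurons and are the targets of neonicotinoid and spinosyn insecticides. Synaptic receptors are a feature of differentiated neurons.

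The 16 poly(A) RNA libraries came from wandering larvae carrying UAS-dcr2, ase-GAL4 and UAS-stinger::GFP. The ase driver gives nuclear GFP in NBs of type I, and GMCs and NBs of all ages shared these transgenes. NBs were sorted from brains, kept in culture for 1.5, 3 or 5 h, and sorted again together with the GMCs born there. GMCs contributed 3, 2 and 2 libraries and NBs 3, 3 and 3 libraries at 1.5, 3 and 5 h. Both populations are labelled wild type, the count files hold between 6899670 and 21207182 counts in genes per library, and the sources used here do not say that replicates were separate cultures, so p-values measure the spread between these libraries only. Each age was sequenced on a flow cell of its own by the file names, so age and sequencing run cannot be told apart.

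Defining genes were set against the labels. The stem cell factor dpn ranged from 36.0 to 56.7, 38.7 to 42.4 and 91.8 to 112 CPM (counts scaled to a common library size) in GMCs of 1.5, 3 and 5 h, against 115 to 185, 93.7 to 184 and 202 to 255 CPM in NBs. The differentiation factor pros ranged from 4093.5 to 6762, 2111 to 2760 and 1063 to 1310 CPM in GMCs, against 600 to 826, 460 to 533 and 486 to 1012 CPM in NBs. Neither gene overlapped between the cell types at any age, although pros was not called by edgeR at 5 h (adjusted p = 0.115). Without NB replicate 3 of 5 h, pros was called higher in GMCs there (log2 fold change 0.82, edgeR adjusted p = 0.0461). Of 10 neuroblast markers, 8, 7 and 5 were called lower in GMCs at 1.5, 3 and 5 h and 0, 2 and 2 higher. The 2 were ase, at 773 to 855 and 1262 to 1593 CPM in GMCs of 3 and 5 h, against 266 to 374 and 350.4 to 481 CPM in NBs, and wor, at 339 to 384 and 811 to 850 CPM in GMCs, against 185 to 230.3 and 176 to 265 CPM in NBs. Of 6 GMC fate genes, 4, 4 and 3 were called higher, and numb was called lower at 1.5 h. In a principal component analysis, NB replicate 1 of 5 h scored 38.7 on the first component (32.3% of the variance), whereas the other 4 libraries of 5 h scored between -79 and -65.1. On the same component NBs of 3 h scored 22.2, 55.5 and 37.9, and GMCs of 3 h 69.6 and 44.9. Why this library of 5 h lay among those of 3 h was not tested.

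At 1.5 h GMCs exceeded NBs in all 9 tested subunit genes. At 3 h 6 of them were called higher, and at 5 h only nAChRalpha5 was. At 1.5 h the difference was largest for nAChRalpha1 and nAChRbeta1, which NBs of 1.5 h barely expressed, and smallest for nAChRalpha5, the most abundant subunit in both cell types. These calls used edgeR's quasi-likelihood test with Benjamini-Hochberg adjustment over 10913 genes, with genes called at an adjusted p under 0.05. The share of all tested genes called higher in GMCs was 8.59% at 1.5 h, 10.2% at 3 h and 14.8% at 5 h. The share called lower was 8.97%, 10.5% and 14%, and the share called in either direction 17.6%, 20.7% and 28.8%.

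**Figure D1:**
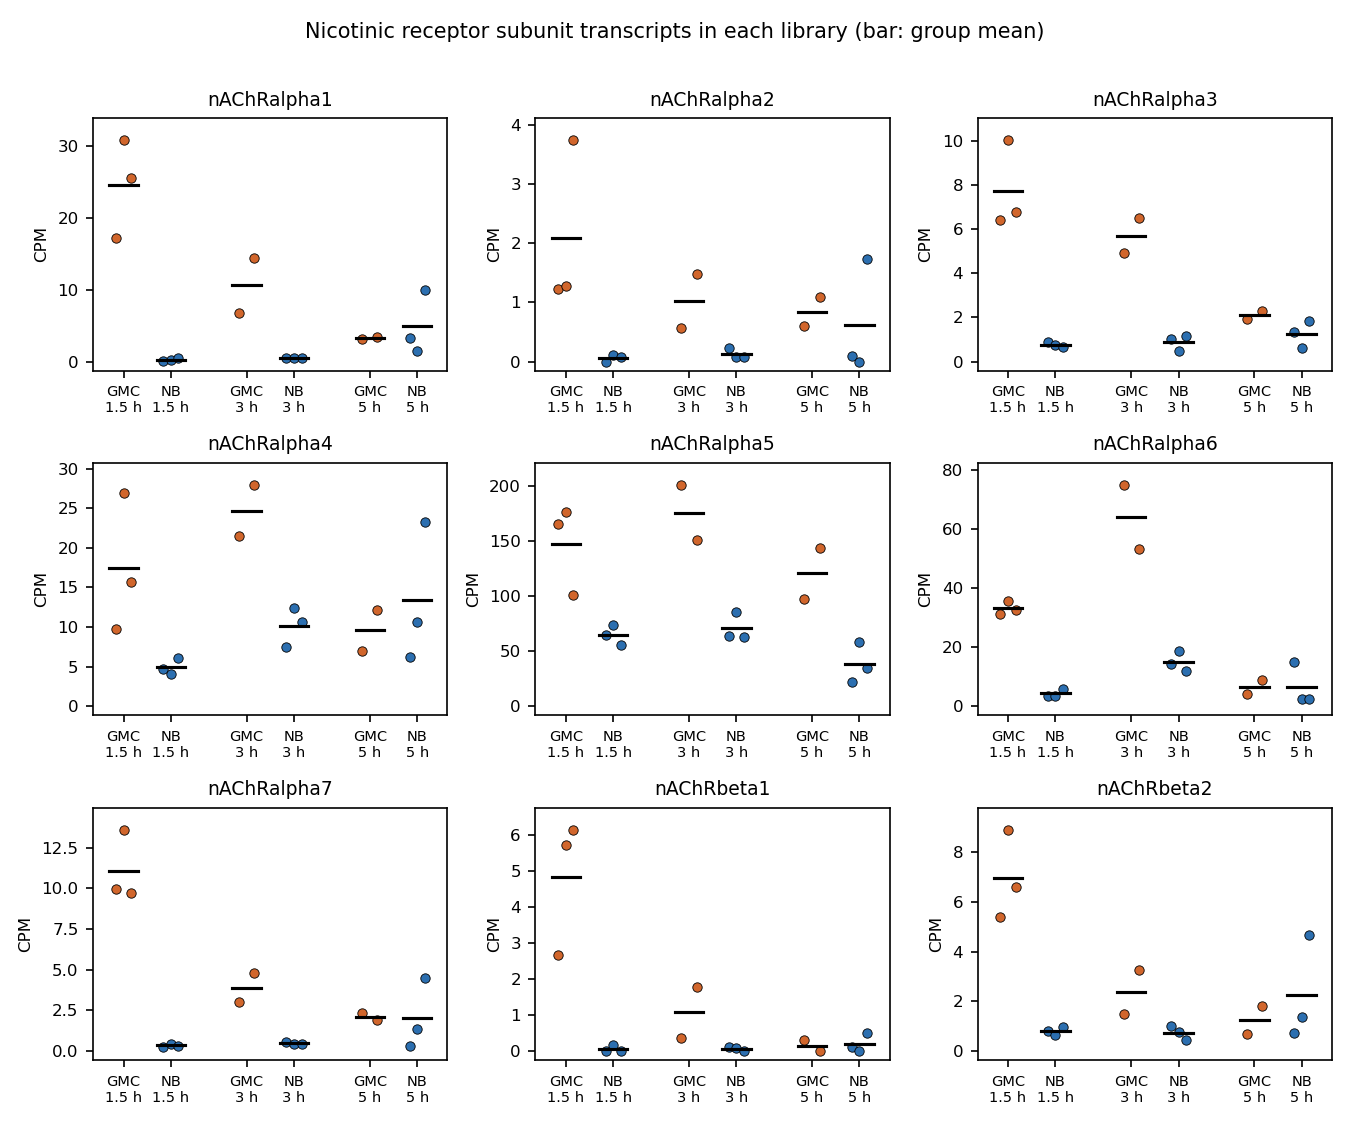
CPM of the 9 subunit genes with counts, 1 point per library, with GMCs (orange) left of NBs (blue) at each age and a bar at the group mean; each panel has its own linear axis from 0. At 1.5 h and 3 h every GMC library lies above every NB library in all 9 panels, whereas at 5 h this holds for nAChRalpha5 and nAChRalpha3 alone.

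Per length, nAChRalpha5 had the highest mean of the subunit transcripts in each of the 6 groups. Divided by the kilobases of annotated exon, its mean level was 15.7, 18.7 and 12.9 CPM per kb in GMCs of 1.5, 3 and 5 h, against 6.91, 7.55 and 4.13 CPM per kb in NBs. In NBs of 5 h its range overlapped that of nAChRalpha4, which averaged 2.21 CPM per kb. In NB replicate 3 of 5 h nAChRalpha4 was the higher, at 3.84 against 3.75 CPM per kb. In GMCs of 1.5 h nAChRalpha6 came next at 4.27 CPM per kb and nAChRalpha4 after it at 2.88 CPM per kb; the ranges of nAChRalpha6 and nAChRalpha4 overlapped, as did those of each later pair of neighbours down to nAChRalpha2 and nAChRalpha3 at 0.872 and 0.736 CPM per kb. In NBs of 1.5 h nAChRalpha5 stood far apart from nAChRalpha4 at 0.823 and nAChRalpha6 at 0.564 CPM per kb, and every other subunit was at or below 0.201 CPM per kb.

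The summed level of all subunits was 32 ± 5.85, 34.6 ± 3.24 and 16.9 ± 4.76 CPM per kb in GMCs of 1.5, 3 and 5 h (SD, n = 3, 2 and 2), against 8.71 ± 0.668, 11.6 ± 2.02 and 9.02 ± 2.89 CPM per kb in NBs (SD, n = 3 each). Without nAChRalpha5 the sums were 16.3, 15.9 and 4.01 CPM per kb in GMCs, against 1.80, 4.08 and 4.88 CPM per kb in NBs, and the cell types overlapped at 5 h. At that age the libraries stood at 3.09 and 4.92 CPM per kb in GMCs, against 3.69, 2.86 and 8.10 CPM per kb in NBs, so that without NB replicate 3 both NB libraries lay below the GMC mean. nAChRalpha5 accordingly made up 48.9 ± 9.89%, 53.8 ± 5.81% and 76.4 ± 1.03% of the summed level in GMCs, against 79.1 ± 5.38%, 64.9 ± 0.256% and 46.5 ± 19.5% in NBs. Both beta subunits together held 10.6 ± 2.99% of the sum in GMCs of 1.5 h, against 2.55 ± 0.407% in NBs of 1.5 h. These are shares of transcript per exon length and not of assembled receptor.

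**Figure D2:**
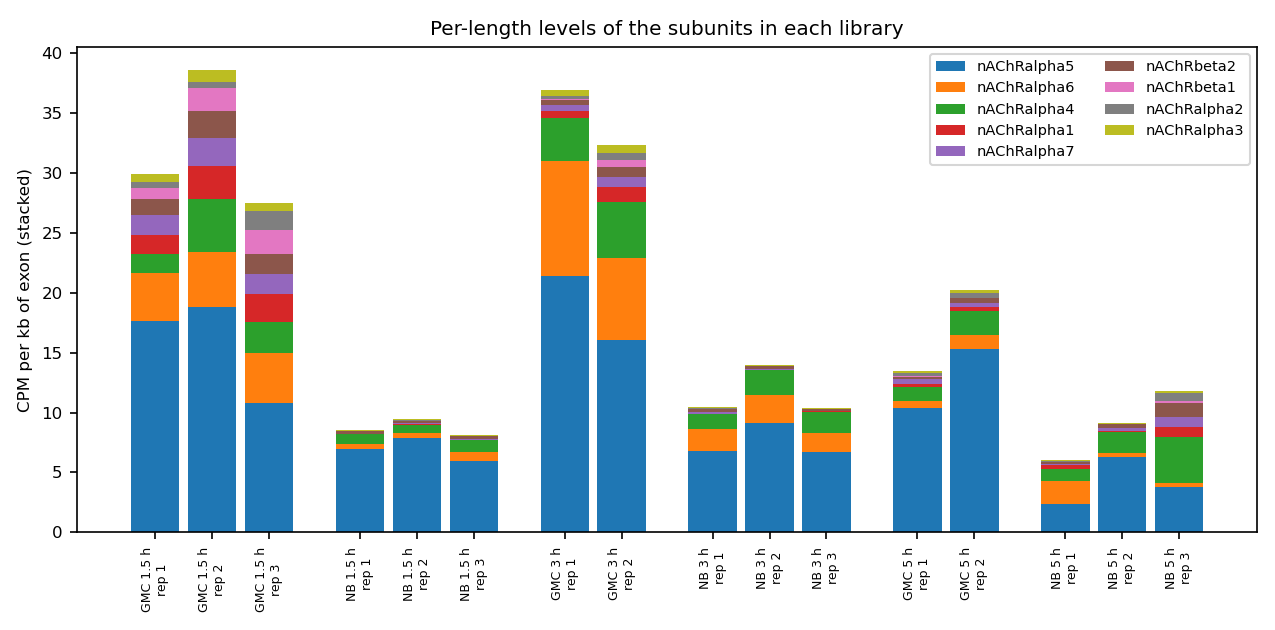
Level of each subunit in CPM per kb of exon, stacked for each library, with GMCs left of NBs at each age. nAChRalpha5 (bottom segment) fills most of the NB bars of 1.5 h and 3 h, nAChRalpha6 is widest in GMCs of 3 h, and NB replicate 3 of 5 h carries more of nAChRalpha4, nAChRalpha1, nAChRalpha7 and nAChRbeta2 than the other NB libraries.

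nAChRalpha5 (FBgn0028875, chromosome 2L, 14040170 to 14094401 on the plus strand, in release 6 coordinates) belongs with nAChRalpha6 and nAChRalpha7 to the group of subunits most like the vertebrate alpha7 subunit. At 1.5 h it stood at 165, 176 and 101 CPM in GMCs, against 65.0, 73.6 and 55.7 CPM in NBs. At 3 h it stood at 201 and 151 CPM in GMCs, against 63.6, 85.3 and 63.3 CPM in NBs, and at 5 h at 97.7 and 144 CPM in GMCs, against 22.4, 58.7 and 35.1 CPM in NBs. The cell types did not overlap at any age. Its log2 fold change was 1.19 ± 0.291 (SE) at 1.5 h, 1.31 ± 0.319 at 3 h and 1.64 ± 0.322 at 5 h, with edgeR adjusted p of 0.00989, 0.0076 and 0.00108. At 3 h the call was lost without GMC replicate 1 (adjusted p = 0.0982). With the trend of level over gene length removed from each library, the 3 h value was 0.77 and also no longer called (adjusted p = 0.0677).

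nAChRalpha6 (FBgn0032151, 2L, 9793317 to 9886250, minus strand) encodes the target of spinosyns, and its transcript is edited by Adar at several sites in the fly. GMCs of 1.5 h held 31.2, 35.8 and 32.7 CPM, against 3.62, 3.67 and 5.88 CPM in NBs. GMCs of 3 h held 75.0 and 53.3 CPM, against 14.4, 18.6 and 12 CPM in NBs. It was the highest of all groups in GMCs of 3 h, where no library overlapped another group's. At 5 h GMCs held 4.15 and 8.92 CPM, against 14.9, 2.61 and 2.65 CPM in NBs, where replicate 1 alone was above both GMC libraries. The value of that NB replicate 1 lay within the range of NBs of 3 h. The log2 fold change was 2.91 ± 0.507 at 1.5 h and 2.09 ± 0.521 at 3 h (edgeR adjusted p = 0.00107 and 0.00875), and -0.05 ± 0.574 at 5 h (adjusted p = 0.961). Without GMC replicate 1 the 3 h call was lost (adjusted p = 0.0858), and without NB replicate 1 the 5 h value was 1.30 and called (adjusted p = 0.0188).

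nAChRalpha7 (FBgn0086778, X, 19327075 to 19348447, minus strand) is known in the fly for its role in the giant fibre escape circuit. Its transcript was at 9.97, 13.6 and 9.70 CPM in GMCs of 1.5 h, against 0.286, 0.458 and 0.329 CPM in NBs. At 3 h it was at 3.01 and 4.81 CPM in GMCs, against 0.565, 0.468 and 0.431 CPM in NBs, again without overlap. At 5 h GMCs stood at 2.33 and 1.93 CPM, inside the NB values of 0.312, 1.36 and 4.48 CPM. It had log2 fold changes of 4.93 ± 0.653 at 1.5 h and 3.02 ± 0.690 at 3 h (edgeR adjusted p = 0.000123 and 0.00514) and of 0.05 ± 0.654 at 5 h (adjusted p = 0.962). The 3 h call was lost without GMC replicate 2 (adjusted p = 0.0664).

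3 subunit genes lie together on chromosome 3R at 96A, within 121211 bp: nAChRalpha1 (FBgn0000036, 24393896 to 24457157, minus strand), nAChRalpha2 (FBgn0000039, 24485428 to 24491147, plus strand) and nAChRbeta2 (FBgn0004118, 24509228 to 24515106, minus strand). The gap between nAChRalpha1 and nAChRalpha2 is 28270 bp and that between nAChRalpha2 and nAChRbeta2 is 18080 bp, and 2 other annotated genes lie in each gap. nAChRalpha1 and nAChRbeta2 are best known in the fly as subunits whose loss gives resistance to neonicotinoids.

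Of the 3, nAChRalpha1 showed the widest difference. GMCs of 1.5 h had 17.2, 30.8 and 25.6 CPM, against 0.0952, 0.286 and 0.453 CPM in NBs. GMCs of 3 h had 6.78 and 14.4 CPM, against 0.565, 0.468 and 0.503 CPM in NBs. GMCs were thus more than 10 times the NB level in every library pair of those ages. GMCs of 5 h had 3.14 and 3.38 CPM, against 3.33, 1.46 and 9.98 CPM in NBs, and the groups overlapped. Log2 fold changes were 6.39 ± 0.669 at 1.5 h, 4.38 ± 0.670 at 3 h and -0.60 ± 0.613 at 5 h (edgeR adjusted p = 2.55e-05, 0.000286 and 0.497).

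nAChRbeta2 stood at 5.39, 8.90 and 6.58 CPM in GMCs of 1.5 h, against 0.810, 0.630 and 0.987 CPM in NBs. At 3 h it stood at 1.51 and 3.26 CPM in GMCs, against 1.02, 0.780 and 0.431 CPM in NBs. These groups did not overlap, although GMC replicate 1 of 3 h came close to NB replicate 1. At 5 h GMCs had 0.708 and 1.81 CPM, against 0.728, 1.36 and 4.69 CPM in NBs. It had a log2 fold change of 3.08 ± 0.606 at 1.5 h (edgeR adjusted p = 0.00241), and values of 1.75 ± 0.688 at 3 h (adjusted p = 0.0841) and -0.86 ± 0.701 at 5 h (adjusted p = 0.389) that were not called.

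nAChRalpha2, the middle gene of the cluster, was scarce. Its level was 1.23, 1.28 and 3.74 CPM in GMCs of 1.5 h, against 0, 0.115 and 0.0823 CPM in NBs. At 3 h it was 0.565 and 1.47 CPM in GMCs, against 0.226, 0.0780 and 0.0719 CPM in NBs. NBs held only 4 reads of it in sum at each of these ages, against 75 and 22 reads in GMCs, a depth-scaled GMC to NB ratio of 31.3 at 1.5 h (exact conditional binomial 95% interval 11.7 to 118) and 10.8 at 3 h (3.65 to 42.9); this interval, like those given for nAChRbeta1, treats reads as independent and covers counting error only. At 5 h GMCs had 0.607 and 1.09 CPM, against 0.104, 0 and 1.73 CPM in NBs. edgeR called it at 1.5 h (log2 fold change 4.81 ± 1.15, adjusted p = 0.00844), and not at 3 h (3.10 ± 1.27, adjusted p = 0.0956) or 5 h (0.44 ± 1.13, adjusted p = 0.800). Without NB replicate 3, the library with 17 of the 18 NB reads of 5 h, the 5 h value was 3.78 and called (adjusted p = 0.0445).

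nAChRalpha3 (FBgn0015519, X, 8276200 to 8367169, minus strand) encodes another ligand-binding subunit. It ran at 6.42, 10 and 6.76 CPM in GMCs of 1.5 h, against 0.905, 0.745 and 0.658 CPM in NBs. At 3 h it ran at 4.90 and 6.51 CPM in GMCs, against 1.02, 0.468 and 1.15 CPM in NBs, and at 5 h at 1.92 and 2.29 CPM in GMCs, against 1.35, 0.627 and 1.83 CPM in NBs. Besides nAChRalpha5 it was the other subunit whose GMC libraries stayed above all NB libraries at 5 h, although the difference there was small. Log2 fold changes were 3.31 ± 0.446, 2.70 ± 0.483 and 0.72 ± 0.496 at 1.5, 3 and 5 h (edgeR adjusted p = 0.00014, 0.000904 and 0.298). Of its exon bases, 2.39% overlap CG1636 on the opposite strand.

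nAChRalpha4 (FBgn0266347, 3L, 23206669 to 23287448, plus strand), also known as redeye for its part in fly sleep, came second to nAChRalpha5 per length in NBs of 1.5 h (0.823 CPM per kb), where its range overlapped that of nAChRalpha6. Its level was 9.76, 26.9 and 15.7 CPM in GMCs of 1.5 h, against 4.76, 4.12 and 6.05 CPM in NBs. At 3 h it was 21.5 and 27.9 CPM in GMCs, against 7.46, 12.4 and 10.6 CPM in NBs. Both ages were free of overlap. At 5 h GMCs had 6.98 and 12.2 CPM, against 6.24, 10.7 and 23.2 CPM in NBs, and the groups were mixed. The log2 fold change was 1.80 ± 0.436 at 1.5 h (edgeR adjusted p = 0.00896), 1.28 ± 0.468 at 3 h (adjusted p = 0.0636) and -0.49 ± 0.489 at 5 h (adjusted p = 0.490). Without GMC replicate 2 the 1.5 h value was 1.35 and not called (adjusted p = 0.0648). In the authors' deposited table the 3 h difference passed (adjusted p = 0.0485). Transposon copies and a long non-coding RNA overlap 15.3% of its exon bases, so part of its count depends on how the authors assigned shared reads.

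nAChRbeta1 (FBgn0000038, 3L, 4429349 to 4435993, plus strand) is the beta subunit of the main neonicotinoid-sensitive receptors. GMCs of 1.5 h had 2.66, 5.73 and 6.14 CPM, against 0, 0.172 and 0 CPM in NBs. GMCs of 3 h had 0.377 and 1.78 CPM, against 0.113, 0.0780 and 0 CPM in NBs. At 1.5 h that was 175 reads in GMCs against 3 in NBs, a depth-scaled ratio of 97.4 (95% interval 32.8 to 477), and at 3 h 25 reads against 2, a ratio of 24.4 (6.09 to 213). By 5 h the transcript was close to 0 in both cell types, with 0.303 and 0 CPM in GMCs, against 0.104, 0 and 0.509 CPM in NBs, or 3 reads against 6. The fitted log2 fold change was 6.34 ± 1.1 at 1.5 h (edgeR adjusted p = 0.00117), 4.13 ± 1.29 at 3 h (adjusted p = 0.0314) and -0.34 ± 1.47 at 5 h (adjusted p = 0.887). With so few NB reads the 3 h call rested on single libraries: the adjusted p was 0.0719 without NB replicate 2, 0.106 without NB replicate 3 and 0.462 without GMC replicate 2.

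nAChRbeta3 (FBgn0031261, 2L, 545129 to 547096, plus strand), the most divergent subunit, was listed at 0 in all 16 libraries. The limit that a count of 0 allows (3 counts) was between 0.123 and 0.565 CPM per library. Its exons lie wholly within Ets21C on the opposite strand, which averaged 7.21, 14.7 and 7.09 CPM in GMCs of 1.5, 3 and 5 h, against 6.81, 8.98 and 12.8 CPM in NBs. Whether counting used strand is unknown from the labels. Without strand a read in those exons belongs to both genes, so the 0 and its limit measure this transcript only if strand was used.

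**Figure D3:**
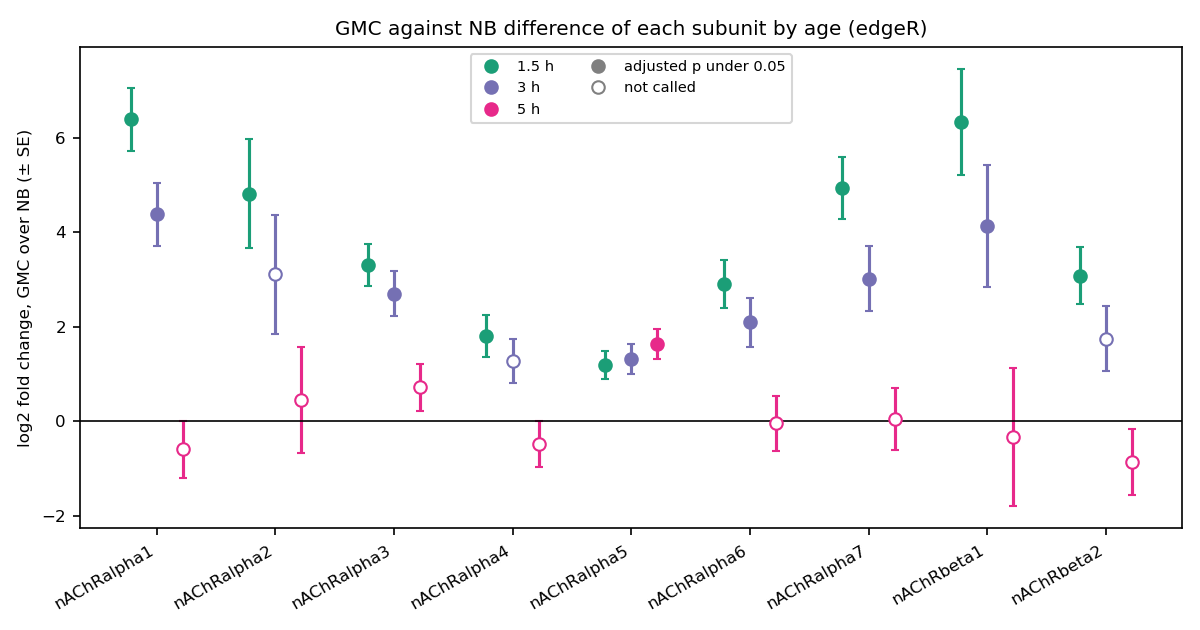
Log2 fold change of GMCs over NBs from edgeR (± SE) for the 9 tested subunits at 1.5, 3 and 5 h; filled points have an adjusted p under 0.05. Points of 8 subunits move towards or below 0 at 5 h, and nAChRalpha5 stays between 1.19 and 1.64.

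Across the 9 tested subunits the median log2 fold change was 3.31 at 1.5 h, 2.70 at 3 h and -0.05 at 5 h, beside 0.04, 0.07 and -0.12 over all 10913 genes. GMC and NB libraries did not overlap, with GMCs higher, for 9, 9 and 2 of the 9, whereas 20.3%, 27.1% and 24.8% of all tested genes did so. The authors' deposited tables called 9, 7 and 1 subunits higher in GMCs, beside 10.1%, 12% and 17.8% of the genes with an adjusted p there. The 3 h count was 4 without GMC replicate 1 and also 4 without GMC replicate 2, whereas it was 7 with DESeq2, which added nAChRalpha4 (adjusted p = 0.0492), and 8 with only the groups compared, which added nAChRalpha2 and nAChRalpha4 (adjusted p = 0.0462 and 0.0362). With the abundant non-coding RNA CR43283 left out of the scaling, the median of all genes at 3 h shifted by -0.11 and the share of called genes that were higher in GMCs was 39.1% in place of 49.2%, while 6 subunits were still called.

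The GMC to NB difference was tested against age directly. From 1.5 h to 5 h it shrank for 7 of the 9 subunits, beside 6.59% of all genes that changed in that direction (13.2% in either direction). The changes in log2 fold change were -6.99 ± 0.926 for nAChRalpha1 (edgeR adjusted p = 0.000287), -6.67 ± 1.87 for nAChRbeta1 (0.0275) and -4.88 ± 0.930 for nAChRalpha7 (0.00315). They were -3.94 for nAChRbeta2, -2.96 for nAChRalpha6, -2.59 for nAChRalpha3 and -2.29 for nAChRalpha4. nAChRalpha2 had a value of -4.37 ± 1.63 (adjusted p = 0.0853), and nAChRalpha5 one of 0.45 ± 0.433 (adjusted p = 0.516). From 1.5 h to 3 h no change of the difference was called, for a subunit or for any of the 10913 genes (0% called by edgeR, 683 genes and 1 subunit at an unadjusted p under 0.05; 35 genes and 0 subunits by DESeq2). The count from 1.5 h to 5 h was 3 without GMC replicate 1 of 5 h and 4 without GMC replicate 2 of 5 h.

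Each cell type was also compared between ages. In GMCs, 6 subunits fell between 1.5 h and 5 h, beside 13.3% of all genes that fell and 17% that rose (30.3% in all): nAChRbeta1 by 4.82, nAChRalpha1 by 2.91, nAChRbeta2 by 2.47, nAChRalpha7 by 2.37, nAChRalpha6 by 2.35 and nAChRalpha3 by 1.87 (log2). nAChRalpha2, nAChRalpha4 and nAChRalpha5 were not called (-1.29, -0.87 and -0.29). In NBs, 3 subunits rose, beside 7.28% of all genes that rose and 4% that fell (11.3% in all): nAChRalpha1 by 4.08 ± 0.643, nAChRalpha7 by 2.50 ± 0.638 and nAChRalpha4 by 1.42 ± 0.436, with edgeR adjusted p of 0.00116, 0.0195 and 0.0453 for these log2 changes. The GMC count was 2 without GMC replicate 1 of 5 h and 3 without GMC replicate 2 of 5 h, and the NB count was 5 without NB replicate 1 of 5 h. Between 1.5 h and 3 h no subunit was called in GMCs (2.96% of genes called, 1.32% higher and 1.64% lower, 2 subunits at an unadjusted p under 0.05, 0 by DESeq2) or in NBs (0.101% of genes called, 0.0733% higher and 0.0275% lower, 2 subunits at an unadjusted p under 0.05, 1 by DESeq2).

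Among NB libraries of 5 h, replicate 3 stood out. It was the highest NB library of that age for 7 of the 9 subunits, with nAChRalpha1 at 9.98 CPM, nAChRalpha4 at 23.2 CPM and nAChRalpha7 at 4.48 CPM. Without it the NB change from 1.5 h to 5 h was 3.04 for nAChRalpha1 and still called (edgeR adjusted p = 0.00544), while nAChRalpha4 had 0.76 (adjusted p = 0.283) and nAChRalpha7 1.22 (adjusted p = 0.214). The calls for nAChRalpha4 and nAChRalpha7 were also lost without NB replicate 1 of 1.5 h (adjusted p = 0.146 and 0.0879), NB replicate 2 (0.144 and 0.0515) or NB replicate 3 of that age (0.0784 and 0.0701), and that for nAChRalpha4 without NB replicate 2 of 5 h (0.0501). Of 19 neuron marker genes, 14 were highest of the NB libraries of 5 h in the same library, and the list summed to 817, 1425 and 1779 CPM in NB replicates 1, 2 and 3. In GMCs the replicate numbered 2 was highest for 13, 15 and 17 of the 19 at 1.5, 3 and 5 h. The part of these other transcripts in the subunit values was not tested, and in pooled cells fewer cells of a type and less RNA per cell cannot be told apart. Without NB replicate 3, the change of the GMC to NB difference from 1.5 h to 5 h was called for 5 subunits, nAChRalpha1, nAChRalpha3, nAChRalpha6, nAChRalpha7 and nAChRbeta2. Without NB replicates 1 and 3, which leaves 1 NB library, it was called for nAChRalpha1, nAChRalpha7 and nAChRbeta2.

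Genes that make, load and remove the transmitter moved in part with the receptors. VAChT, the vesicular acetylcholine transporter, stood at 15, 48.3 and 41.4 CPM in GMCs of 1.5 h, against 0.286, 0.401 and 0.576 CPM in NBs. Its log2 fold change was 6.32 at 1.5 h and 3.12 at 3 h (edgeR adjusted p = 0.000293 and 0.0198), and -0.78 at 5 h (adjusted p = 0.499), where NB replicate 3 had 66.0 CPM. Leaving out GMC replicate 2, NB replicate 1 or NB replicate 3 ended the 3 h call (adjusted p = 0.145, 0.0551 and 0.0635). ChAT, which makes acetylcholine, did not follow: it had -0.08 at 1.5 h (edgeR adjusted p = 0.926) and -0.73 at 3 h (adjusted p = 0.321). It was lower in GMCs at 5 h, with -1.83 (edgeR adjusted p = 0.0124), a call lost with the replicate block (adjusted p = 0.0503). Its 5 h value was -1.40 without GMC replicate 1 and -1.16 without NB replicates 1 and 3, fits that leave 1 library in a group. At 5 h ChAT stood at 2.43 and 4.94 CPM in GMCs, against 19.0, 8.15 and 12 CPM in NBs. VAChT lies inside the ChAT gene and shares its first exon, so their counts are not fully separate. Ace, the acetylcholinesterase, was higher in GMCs at 1.5 h (3.33, adjusted p = 0.000981). Of the 4 genes of this list, 2, 1 and 0 were called higher at 1.5, 3 and 5 h, and 1 was called lower at 5 h.

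Of 7 accessory proteins listed, 4 matched a gene in the files. qvr, which encodes the small membrane-anchored protein Sleepless that binds nicotinic receptors and a potassium channel, was at 14.9, 32.8 and 28.6 CPM in GMCs of 1.5 h, against 0.286, 0.286 and 0.247 CPM in NBs. It was called at 1.5 h and 3 h (log2 fold change 6.50 and 6.33, edgeR adjusted p = 0.000287 and 0.000809), and at 5 h the value was -1.09 (adjusted p = 0.370). At 3 h NBs held only 1, 0 and 4 reads of qvr, against 32 and 225 reads in GMCs. The 3 h value ranged from 5.34 to 7.72 in fits that left out 1 library. Tmx3, an endoplasmic reticulum protein that aids surface expression of fly nicotinic receptors, was at 97.4 and 83.2 CPM in GMCs of 5 h, against 24.6, 31.2 and 35.1 CPM in NBs (log2 fold change 1.57, adjusted p = 1.42e-05). It was not called at 1.5 h or 3 h, except at 3 h with the gene-length trend removed (0.55, adjusted p = 0.0463). The synaptic cleft protein gene hig and unc-50, known for receptor trafficking in Caenorhabditis elegans, were called at no age. The RNA editing enzyme Adar stood higher in GMCs of 5 h by 1.04 (log2, edgeR adjusted p = 0.00676). With only the groups compared its value was 0.975 and not called (adjusted p = 0.0671). Its value was 0.73 without GMC replicate 2 and 0.77 without NB replicates 1 and 3, not called in either. Both of these fits leave 1 library in a group.

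Other transmitter receptors were higher in GMCs less widely at 1.5 h and 3 h by count, a difference between lists that was not tested. Among 11 tested genes of the other Cys-loop channels, 4 were higher at 1.5 h, 3 at 3 h and 0 at 5 h, with median log2 fold changes of 0.99, 0.68 and 0.02. Those 4 were Rdl, a GABA receptor (5.24 at 1.5 h), GluClalpha, a glutamate-gated chloride channel (4.82), pHCl-1, a pH-sensitive chloride channel (3.09), and Lcch3, a GABA receptor-like subunit (0.99). The Lcch3 call was lost in 5 of 6 fits that left out 1 library (adjusted p from 0.0595 to 0.164), with no filter (0.0643) and with the replicate block (0.0903). At 3 h the Rdl call was lost without GMC replicate 2, NB replicate 2 or NB replicate 3 (adjusted p = 0.194, 0.0582 and 0.0611), with only the groups compared (0.0508), the block (0.086) and the length trend removed (0.0576). That of GluClalpha was lost without GMC replicate 2, NB replicate 1 or NB replicate 3 (adjusted p = 0.200, 0.0549 and 0.0701). Of 10 tested ionotropic glutamate receptor genes, 4, 2 and 0 were higher, Nmdar2 among them with 3.26 at 1.5 h (edgeR adjusted p = 0.000877), and 1 was lower at 5 h. Of the 3 muscarinic receptors, which signal through G proteins, mAChR-A alone was called, at 1.5 h (2.49, adjusted p = 0.00523). Rdl at 5 h had 1.92 and was not called (edgeR adjusted p = 0.0504), but it was called with median-ratio scaling (0.0483), scaling without CR43283 (0.0455), DESeq2 (0.0244), without NB replicate 3 (0.0199) and without NB replicates 1 and 3 (0.034).

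Neuronal marker genes did not move as 1 block. Of 19, 15 were higher in GMCs at 1.5 h and 14 at 3 h, with 0 lower at either age. At 5 h 5 were higher (elav, cac, CadN, fne and unc-13) and 2 lower (ChAT and Gad1), with a median log2 fold change of -0.38. elav, the RNA-binding protein that defines neurons, reached 5297 and 5135 CPM in GMCs of 5 h, against 303, 442 and 534 CPM in NBs. Synaptic genes of the list differed among themselves. Rim, an active zone scaffold, had a log2 fold change of 6.50, 5.58 and -0.27 at 1.5, 3 and 5 h, brp, another active zone protein, 4.61, 2.91 and -0.79, and nSyb, a vesicle fusion protein, 4.15, 2.37 and -1.43. None of these was called at 5 h (edgeR adjusted p = 0.829, 0.293 and 0.125), though nSyb was called lower without NB replicate 1 (adjusted p = 0.0480) and Rim higher with the replicate block (0.0291). The 3 h value of nSyb was 1.74 without GMC replicate 2, a fit that leaves 1 GMC library. The calcium channel gene cac and the vesicle priming gene unc-13 had 0.77 and 0.97 at 1.5 h, not called, and 2.98 and 1.66 at 5 h (adjusted p = 3.9e-05 and 0.00696). Syx1A, another vesicle fusion gene, was called at no age (0.26, 0.18 and 0.50). The list summed to 2913 to 3780, 3717 to 4052 and 7114 to 9016 CPM in GMCs of 1.5, 3 and 5 h, against 1082 to 1502, 1073 to 1712 and 817 to 1779 CPM in NBs, and no gene of it was at 0 in all libraries of a group.

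Markers of other cells the sort could hold also differed. The 10 glial markers summed to 593 to 784, 880 to 884 and 1043 to 1076 CPM in GMCs of 1.5, 3 and 5 h, against 680 to 828, 637 to 772 and 525 to 654 CPM in NBs, with 3 of 9 tested called higher in GMCs at each age and 1, Gli, called lower at 5 h. The 11 hemocyte and fat body markers summed to at most 95.9 CPM in a GMC library and 109.6 CPM in an NB library, both of 3 h. The 8 muscle markers, several of which neurons also express at a low level, summed to 57.8 to 71.2, 178 to 222 and 71.5 to 205 CPM in GMCs, against 19.5 to 32.6, 37.4 to 57.1 and 11.1 to 39.9 CPM in NBs. Their part in the subunit values was not tested.

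**Figure D4:**
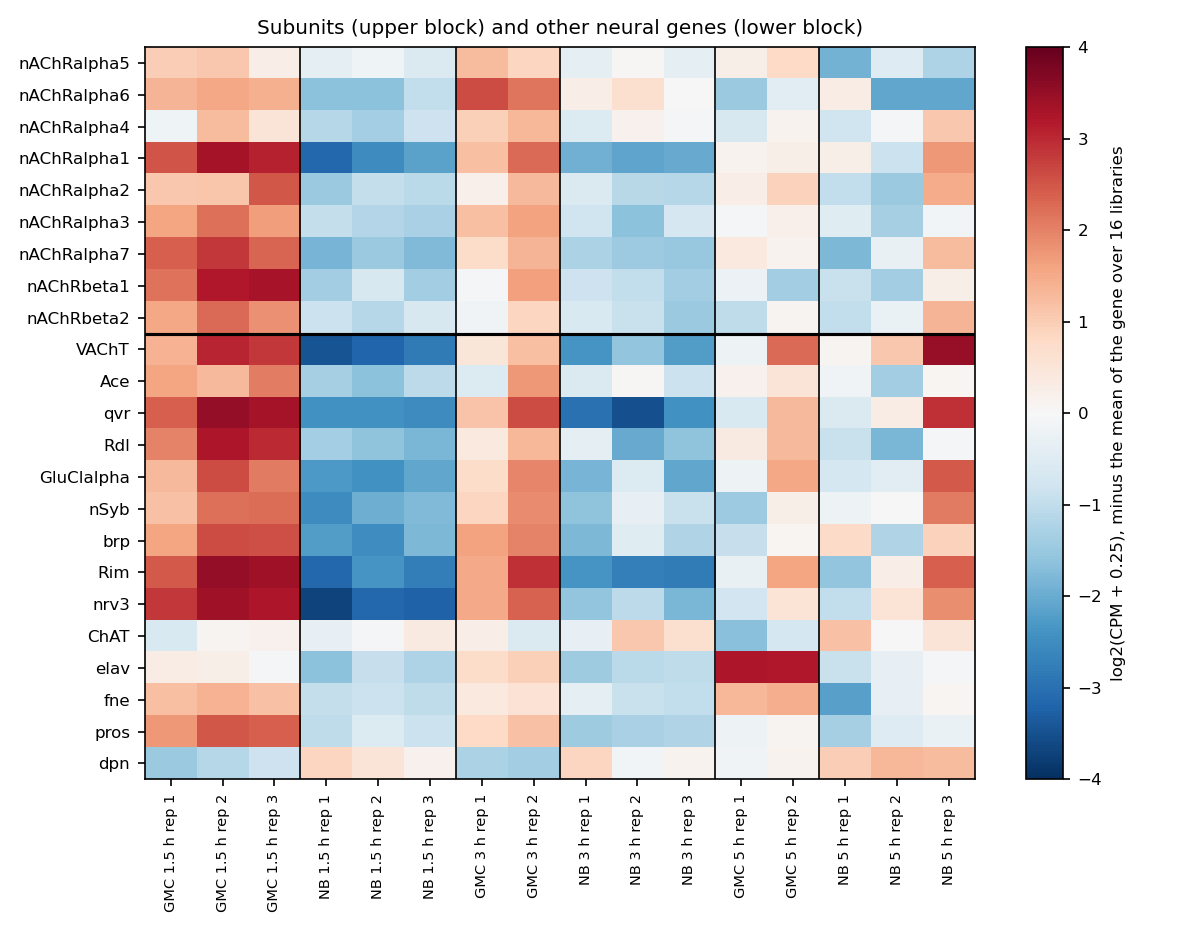
log2(CPM + 0.25) of 9 subunits (upper block) and 14 other neural genes (lower block), each minus its mean over 16 libraries; columns are libraries, GMCs left of NBs at each age. Most subunits and synaptic genes are red in GMCs of 1.5 h and 3 h and pale in GMCs of 5 h, where elav is darkest, and NB replicate 3 of 5 h is redder than the other NB libraries for VAChT, qvr and several subunits.

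The subunits also differed in how alike their patterns were. Over the 16 libraries, the median Pearson r of a subunit's log2 CPM with the other 8 was 0.50 for nAChRalpha5, 0.57 for nAChRalpha6 and 0.68 for nAChRalpha4, and between 0.82 and 0.89 for the remaining 6. The highest single value was 0.93, between nAChRalpha1 and nAChRalpha7. All points share library depth and the split by cell type and age. Among 6964 genes averaging 5 CPM or more, those most like nAChRalpha5 were Dl, the Notch ligand Delta (r = 0.967), tyn (0.963), CG32767 (0.959) and the non-coding RNA CR43283 (0.958). Those most like the summed subunit level were Spred, a Ras pathway inhibitor (0.959), dnc, the cAMP phosphodiesterase dunce (0.945), crp (0.943), Syt7, a synaptotagmin (0.938) and CR45388 (0.938). These 9 values are descriptions over 16 libraries of 6 groups.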

How the data were processed

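Poly(A) RNA from sorted NBs and GMCs was sequenced after tagmentation with random octamers as molecular barcodes, per the labels' protocols; their use in counting was not given in the labels. Deposited counts are whole reads for each gene, not normalized. The submitters' processing notes name DESeq2 1.12.4, HTSeq 0.6.1, bedtools 2.26.0, TopHat2 2.1.1 and BWA 0.7.12 without roles. Not given in the sources used here are the build, annotation and strand setting; 16086 of 16364 listed genes, all 10 subunits among them, have the same start and end in Ensembl release 115 (genome release 6). The 5 summary entries of each file, which name no gene, stayed out. Of all counts in a file, summary entries included, reads in no gene held 9.20% to 17.8%, ambiguous reads 1.43% to 2.10% and non-unique alignments 21.7% to 33.4%. The authors' deposited comparison tables give a mean signal, the log2 ratio of GMC to NB, a Wald score, p-values and adjusted p-values, per the file headers.

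Counts were tested in R 4.3.3 with edgeR 4.0.16 and limma 3.58.1. All 16 libraries entered 1 quasi-likelihood fit with 6 groups and TMM scaling. Of the listed genes, 10913 passed filterByExpr (minimum count 10, total 15), while 5451 did not; dispersion in common was 0.0782. In 9 comparisons, genes were called at a two-sided Benjamini-Hochberg adjusted p under 0.05. CPM are counts over TMM library sizes, and CPM per kb divides them by the exon union length. The test was checked on simulated data. Alternatives were median-ratio scaling, scaling without CR43283, DESeq2 1.42.0, no filter, only the groups compared, a replicate block, removal of the gene-length trend and leaving out each library. When 1 of 2 libraries is left out, the lone library is taken to vary like the other groups. Named genes were the 10 subunits, up to 4 tested members per list with the smallest adjusted p in each comparison of GMCs with NBs, 5 pattern-like genes for nAChRalpha5 (1 of them not reported here) and for the sum, and ChAT, elav, nSyb, brp, dpn and pros, of which the text gives a selection; further list members were chosen after their values were seen. The members and lists were chosen with earlier results of these data known.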

Additional observations from a re-analysis of the deposited data

Results flagged for a closer look

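The GMC to NB difference of 7 subunits was not the same at 5 h as at 1.5 h by edgeR's test of the difference itself with Benjamini-Hochberg adjustment. The change in log2 fold change was -6.99 for nAChRalpha1 (adjusted p = 0.000287), -6.67 for nAChRbeta1 (0.0275), -4.88 for nAChRalpha7 (0.00315), -3.94 for nAChRbeta2 (0.0113), -2.96 for nAChRalpha6 (0.0188), -2.59 for nAChRalpha3 (0.0181) and -2.29 for nAChRalpha4 (0.0312). The sign was negative for all 7 in every fit that left out 1 library, but calls were lost. Of 11 such fits, nAChRalpha4 was not called in 7 and nAChRbeta1 in 6. Without GMC replicate 1 of 5 h the calls left were nAChRalpha1, nAChRalpha7 and nAChRbeta1, and with the replicate block they were nAChRalpha1, nAChRalpha6 and nAChRalpha7. The ages also differ in flow cell, so age and flow cell cannot be told apart here.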

How the results depend on the processing

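In the comparisons of GMCs with NBs, all 9 subunits were called at 1.5 h in every fit except the one without GMC replicate 2 of that age, which called 8. At 3 h 4 to 8 subunits were called (6 in the joint fit). At 5 h 1 subunit was called except without NB replicate 1 or NB replicate 3 of 5 h (2 each). Of the single-gene values under alternatives, 1199 kept direction and side of the threshold, 82 kept direction but lost the call, 18 gained one and 43 changed sign. Where fewer samples enter a fit, its construction bears on the count; in the other cases the cause was not tested.

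Only the groups compared gave 3084 called genes at 1.5 h and 1712 at 5 h (1916 and 3144 in the joint fit). It gave 101 genes and 1 subunit for NBs of 3 h over 1.5 h, 470 and 1 for NBs of 5 h over 1.5 h, and 1592 and 5 for GMCs of 3 h over 1.5 h (joint fit 11, 1231 and 323 genes). DESeq2 called 35 genes for the change of the difference to 3 h and 2165 for that to 5 h (edgeR 0 and 1438), 229 genes and 1 subunit for NBs of 3 h, 1925 genes for NBs of 5 h and 927 for GMCs of 3 h over 1.5 h. For NBs of 3 h over 1.5 h, no filter gave 17 genes and removal of the gene-length trend 43, and that trend removal gave 633 for GMCs of 3 h. At 5 h, nAChRalpha6 had 0.0045 in place of -0.05 with scaling without CR43283, and nAChRalpha7 -0.0024 with only the groups compared.

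Deviations of same-numbered libraries showed little correlation (-0.164 to 0.0819). With so few libraries per group, this cannot show whether same-numbered NBs and GMCs came from a shared culture, so pairing is unknown. In comparisons of GMCs with NBs the replicate block gave each replicate number of an age its own level. GMCs of 3 h and 5 h had no replicate 3, so NB replicate 3 of those ages added nothing to the block values. Comparisons between ages within a cell type instead used a shift for each replicate number. The replicate block gave 1 gene for the change of the difference to 3 h, 3 subunits for that to 5 h and 24 genes for NBs of 3 h over 1.5 h. At 5 h the block turned log2 fold changes to 0.52 for nAChRalpha1, 0.18 for nAChRalpha4, 1.36 for nAChRbeta1 and 0.21 for nAChRbeta2. It gave 0.50 for VAChT, 0.58 for qvr, 1.38 for Rim (called, edgeR adjusted p = 0.0291) and 1.34 for GluClalpha. Without a block and without NB replicate 3, the values in the same order were 0.44, 0.18, 1.47, 0.25, 0.85, 0.75, 1.35 and 1.55. The block and the loss of that library therefore cannot be told apart here.

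Leaving out NB replicates 1 and 3 of 5 h was chosen after seeing the data. It gave 3 subunits and 697 genes for the change of the difference to 5 h, where nAChRalpha2 had 1.64 and nAChRalpha5 -0.15. At 5 h it gave log2 fold changes of 1.15 for nAChRalpha1, 1.31 for nAChRalpha6, 4.16 for nAChRbeta1, 0.43 for VAChT, 0.35 for qvr, 0.88 for brp, 0.67 for Rim and 1.40 for GluClalpha.

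With 1 library left out, called genes ranged from 1157 to 1464 at 1.5 h, 1147 to 2187 at 3 h and 1849 to 3201 at 5 h. They ranged from 790 to 1869 for the change of the difference to 5 h, with 3 to 8 subunits. For NBs they ranged from 0 to 3 at 3 h and 461 to 2277 at 5 h over 1.5 h, the last with 1 to 5 subunits. For GMCs they ranged from 4 to 102 at 3 h and 1723 to 2750 at 5 h over 1.5 h, the last with 2 to 6 subunits. Subunits called at 5 h were 1 to 2. ChAT ranged from -0.29 to 0.14 at 1.5 h and Ace from -0.16 to 2.30 at 3 h (log2). At 5 h the ranges were -1.03 to 0.44 for nAChRalpha1, -0.13 to 3.78 for nAChRalpha2, -0.94 to 0.18 for nAChRalpha4, -0.69 to 1.30 for nAChRalpha6 and -0.45 to 1.34 for nAChRalpha7. They were -4.46 to 1.47 for nAChRbeta1, -1.66 to 0.25 for nAChRbeta2, -2.53 to 0.85 for VAChT, -2.44 to 0.75 for qvr, -1.52 to 1.35 for Rim and -1.47 to 1.55 for GluClalpha. Depth limits nAChRalpha2 and nAChRbeta1 most, with 4 and 3 NB reads at 1.5 h.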
